A study of Rattus norvegicus with 30 samples.

Results

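Cdr2, Prr15, Gimd1, Aqp3, Slc25a34 and Tmem150b are 6 genes of separate families that were chosen by their higher signals in rat ileum after Roux-en-Y gastric bypass (RYGB) than after its sham operation. They are 6 of the 10918 genes tested, and of the 14557 gene symbols measured. Each was read from 1 transcript cluster, a set of probes that carries 1 value per array, and no member had a second cluster named for it alone. Because the choice used the difference between RYGB and its sham, that difference is described below with its 95% confidence interval and without a p, and the interval does not allow for the choice. The members are tested only on the sleeve gastrectomy groups and on their relations to other genes across arrays. Other genes and marker lists are also tested between RYGB and its sham.

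The ileum came from 30 male wild-type Long-Evans rats aged 8-10 weeks and kept free of specific pathogens, and each rat gave 1 array. Rats had RYGB or the bypass sham (Sham_RYGB), vertical sleeve gastrectomy (VSG), or the sleeve sham, fed without pairing (Sham_VSG) or by paired feeding (Sham_VSG_PF), in which intake is matched to that of other animals. These 5 groups held 6 rats each. All rats were given a liquid diet in place of solid food on the day before surgery, were anaesthetised with isoflurane and had the stomach exposed through a midline incision. About 80% of the stomach was transected in VSG, and blunt forceps were pressed along the same line in the sham operation, while the labels give no separate account of the RYGB operation or of its sham, nor of the time between surgery and sampling. The study's title asks about iron absorption and gut hormones, which these 6 genes do not measure.

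Each of the 6 has its own role or family. Aqp3 encodes an aquaglyceroporin, a channel that lets water and glycerol cross the basolateral membrane of epithelial cells. Slc25a34 encodes a member of the carrier family of the inner mitochondrial membrane. Tmem150b belongs to the DRAM and TMEM150 family of multi-pass membrane proteins, whose human members have been tied to autophagy. Gimd1 carries a GTP-binding domain like that of the GIMAP proteins, a family best known from lymphocytes. Prr15 encodes a small proline-rich protein that was described in the mouse gut in epithelial cells that have stopped dividing. Cdr2 encodes a coiled-coil protein known in humans as the target of antibodies in paraneoplastic cerebellar degeneration, and it can bind MYC. The lining of the ileum is renewed from dividing crypt cells that become absorptive enterocytes as they move up the villus, and the same wall holds lymphoid follicles (Peyer's patches), muscle and attached fat, so that a piece of ileum mixes these tissues in varying shares.

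All 6 genes were found in the RefSeq promoter table of the rat build GRCr8, which gives 250 bases before and 50 bases after each gene's start. Promoters of 4 members are printed because they show how unlike the starts of these genes are. Each is written 5′ to 3′ on the gene's own strand, and capitals mark the letters searched for on both strands: TATAAA (a core promoter element), CCAAT (bound by the factor NF-Y), GGGCGG (the GC box bound by SP1), ACGTG (the core of HIF sites, also part of the E-box named below) and CAAAGTCCA (an HNF4 motif). Cdr2 lies at chr1:184958987-184959286 on the minus strand, Prr15 at chr4:84762107-84762406 on the plus strand, Aqp3 at chr5:61040634-61040933 on the minus strand and Tmem150b at chr1:78154241-78154540 on the plus strand.
Cdr2: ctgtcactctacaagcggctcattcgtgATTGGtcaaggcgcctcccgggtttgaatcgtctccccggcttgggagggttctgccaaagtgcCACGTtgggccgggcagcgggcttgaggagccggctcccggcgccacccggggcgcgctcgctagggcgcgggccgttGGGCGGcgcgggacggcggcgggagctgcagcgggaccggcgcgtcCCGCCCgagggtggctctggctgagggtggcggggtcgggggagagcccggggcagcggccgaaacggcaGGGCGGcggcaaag
Prr15: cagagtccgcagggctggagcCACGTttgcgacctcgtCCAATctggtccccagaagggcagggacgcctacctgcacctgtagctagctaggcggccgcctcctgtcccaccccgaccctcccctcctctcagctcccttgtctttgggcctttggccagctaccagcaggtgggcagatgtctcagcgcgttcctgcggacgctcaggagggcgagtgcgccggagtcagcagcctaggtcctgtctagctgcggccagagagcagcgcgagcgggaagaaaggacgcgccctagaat
Aqp3: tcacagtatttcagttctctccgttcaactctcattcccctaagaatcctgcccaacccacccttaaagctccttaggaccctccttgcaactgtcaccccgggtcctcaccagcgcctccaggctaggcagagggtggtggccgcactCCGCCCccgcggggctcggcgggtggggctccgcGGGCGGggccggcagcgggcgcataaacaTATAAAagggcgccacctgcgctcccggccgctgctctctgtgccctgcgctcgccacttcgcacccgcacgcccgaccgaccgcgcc
Tmem150b: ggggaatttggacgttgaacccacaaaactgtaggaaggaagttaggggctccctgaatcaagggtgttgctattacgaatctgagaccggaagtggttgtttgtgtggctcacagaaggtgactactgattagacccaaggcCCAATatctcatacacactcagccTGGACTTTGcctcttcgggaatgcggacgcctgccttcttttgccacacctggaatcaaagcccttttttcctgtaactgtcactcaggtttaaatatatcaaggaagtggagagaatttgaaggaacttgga

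The Cdr2 window was the richest in G and C of the 6, at 74.3%, with an observed over expected ratio of CpG of 0.974. Those of Aqp3 and Prr15 held 67.3% and 65.7% G and C, with CpG ratios of 0.861 and 0.651, and that of Slc25a34 held 60.7% with a ratio of 0.109. The Tmem150b and Gimd1 windows were poorer, at 47% and 42.3%, with ratios of 0.365 and 0.224. Over all 33469 promoters of this length the median was 51.7%, and the middle part of the distribution, between the 25th and 75th percentiles, ran from 44.7% to 60.3%. The CCAAT motif was found in 5 of the 6 windows, all but that of Aqp3, against 37.5% of all promoters. The GC box was found in those of Cdr2, Aqp3 and Slc25a34, against 33.1% of all promoters, and TATAAA only in that of Aqp3, against 14.2%. The ACGTG core stood in the Cdr2 and Prr15 windows and in 19.3% of all promoters. The HNF4 motif stood in the Tmem150b window and in 0.391% of all promoters. Neither CACGTG (an E-box that MYC can bind, in 6.42%), TTTATTG (a CDX2 motif, in 4.57%) nor the direct repeat bound by PPAR (in 0.0538%) was found in any of the 6. No motif was in all 6 windows, and a match is a stretch of letters, not a measured binding site.

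Before the genes are described, the make-up of the tissue pieces is given, because it differed between arrays. The ileal markers Fabp6, the ileal bile acid binding protein, and Slc10a2, the ileal bile acid transporter, were high on all 30 arrays. On the log2 scale Fabp6 lay between 11.8 and 12.2 and Slc10a2 between 9.77 and 10.8. Fgf19, another ileal marker, varied far more, from 3.035 to 11.4 with a median of 8.77. The mean of 17 genes of B and plasma cells (25 were listed), called the lymphoid content below, fell into separate ranges. It ran from 4.66 to 5.38 on 19 arrays and from 6.76 to 7.86 on the other 11, and Ms4a1, the B cell antigen CD20, ran from 1.79 to 9.33 over the arrays. Of the 11 high arrays, 3 were Sham_RYGB, 3 Sham_VSG, 2 VSG, 2 Sham_VSG_PF and 1 RYGB. The mean of 12 fat cell genes (15 were listed) lay between 6.17 and 6.67 on 3 RYGB arrays and 1 VSG array, between 4.03 and 4.93 on the other 26, and on none of the 18 sham arrays in the upper range. Adipoq, the fat cell hormone adiponectin, ran from 1.93 to 6.92. In bulk tissue, fewer cells of a type and less RNA per cell cannot be told apart.

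Cdr2 had the largest difference of the 6 genes between RYGB and Sham_RYGB. On the log2 scale of the deposited signal, the lowest, median and highest RYGB arrays were at 6.71, 7.64 and 8.16, and the Sham_RYGB arrays at 6.09, 6.52 and 6.70. The groups did not overlap, although the lowest RYGB array lay close to the highest sham array, and the RYGB arrays spread more widely (SD 0.57, n = 6) than those of any other group. The mean was 7.59 ± 0.57 (SD, n = 6) after RYGB and 6.47 ± 0.24 (SD, n = 6) after its sham, a 2.17-fold difference (95% confidence interval 1.62 to 2.90). Levels in the other groups were 6.25, 7.02 and 7.29 in VSG, 6.28, 6.45 and 6.70 in Sham_VSG, and 5.94, 6.23 and 6.68 in Sham_VSG_PF. VSG therefore held the next highest mean, 6.88 ± 0.45 (SD, n = 6), and 5 of the 6 RYGB arrays lay above every other array of the study.

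Prr15 separated the RYGB arrays most cleanly. The RYGB arrays lay at 8.38, 8.51 and 8.65 (lowest, median, highest) and the Sham_RYGB arrays at 6.69, 7.72 and 7.93. The RYGB arrays were the tightest group, with a mean of 8.50 ± 0.10 (SD, n = 6) against 7.57 ± 0.47 (SD, n = 6) in the sham, a 1.91-fold difference (interval 1.47 to 2.49). VSG spanned 7.16, 7.75 and 8.20, Sham_VSG 6.96, 7.77 and 7.93, and Sham_VSG_PF 7.45, 7.78 and 8.06. All 6 RYGB arrays were above all 24 other arrays, which held for 2 of the 10918 genes (0.0183%), Prr15 and Tnfrsf1a, a receptor of tumour necrosis factor that was named here after its values were seen. The 4 other group means of Prr15 lay within 0.21 of each other.

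Aqp3, the glycerol and water channel, lay at 8.46, 8.81 and 9.03 after RYGB and at 6.96, 7.96 and 8.21 after its sham. The groups did not overlap, and the means were 8.79 ± 0.21 (SD, n = 6) and 7.80 ± 0.47 (SD, n = 6), a 1.99-fold difference (interval 1.49 to 2.66). In VSG it was at 7.67, 8.36 and 8.48, in Sham_VSG at 7.44, 8.11 and 8.23, and in Sham_VSG_PF at 7.45, 8.15 and 8.53. Of the 24 arrays outside RYGB, 2 were above the lowest RYGB array, and Sham_RYGB replicate 3 was the lowest array of the study for this gene.

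Gimd1, a gene of lower signal, lay at 5.34, 5.88 and 6.11 after RYGB and at 4.62, 5.04 and 5.25 after its sham, again without overlap. The means of 5.82 ± 0.27 (SD, n = 6) and 4.98 ± 0.23 (SD, n = 6) differed 1.78-fold (interval 1.42 to 2.24). It was at 4.59, 5.29 and 5.58 in VSG, at 4.64, 5.02 and 5.36 in Sham_VSG, and at 4.46, 4.93 and 5.26 in Sham_VSG_PF. The VSG arrays thus spanned both the sham range and the lower end of the RYGB range.

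Slc25a34, the mitochondrial carrier, also had a lower signal than most members, though above the array medians of 3.10 to 3.25. It lay at 4.95, 5.45 and 6.04 after RYGB and at 4.15, 4.63 and 4.90 after its sham. Means were 5.44 ± 0.42 (SD, n = 6) and 4.61 ± 0.25 (SD, n = 6), a 1.78-fold difference (interval 1.41 to 2.23). The groups did not overlap, but 8 of the 24 arrays outside RYGB were above the lowest RYGB array, more than for any other member. The other groups lay at 4.60, 4.96 and 5.14 in VSG, at 4.43, 4.73 and 4.99 in Sham_VSG, and at 4.57, 5.04 and 5.38 in Sham_VSG_PF. It was one of 2 members, with Prr15, whose next highest mean was that of the pair-fed sham rather than that of VSG.

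Tmem150b had the smallest difference and was the only member whose groups overlapped. It lay at 7.80, 8.02 and 8.20 after RYGB and at 7.07, 7.46 and 7.83 after its sham, where replicate 1 was above the lowest RYGB array. Means were 8.02 ± 0.13 (SD, n = 6) and 7.43 ± 0.27 (SD, n = 6), a 1.503-fold difference (interval 1.26 to 1.80). VSG lay at 7.14, 7.57 and 7.75, Sham_VSG at 7.19, 7.30 and 7.48, and Sham_VSG_PF at 7.02, 7.48 and 7.77. The 4 group means other than RYGB lay within 0.20 of each other, the narrowest such range among the members.

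**Figure D1:**
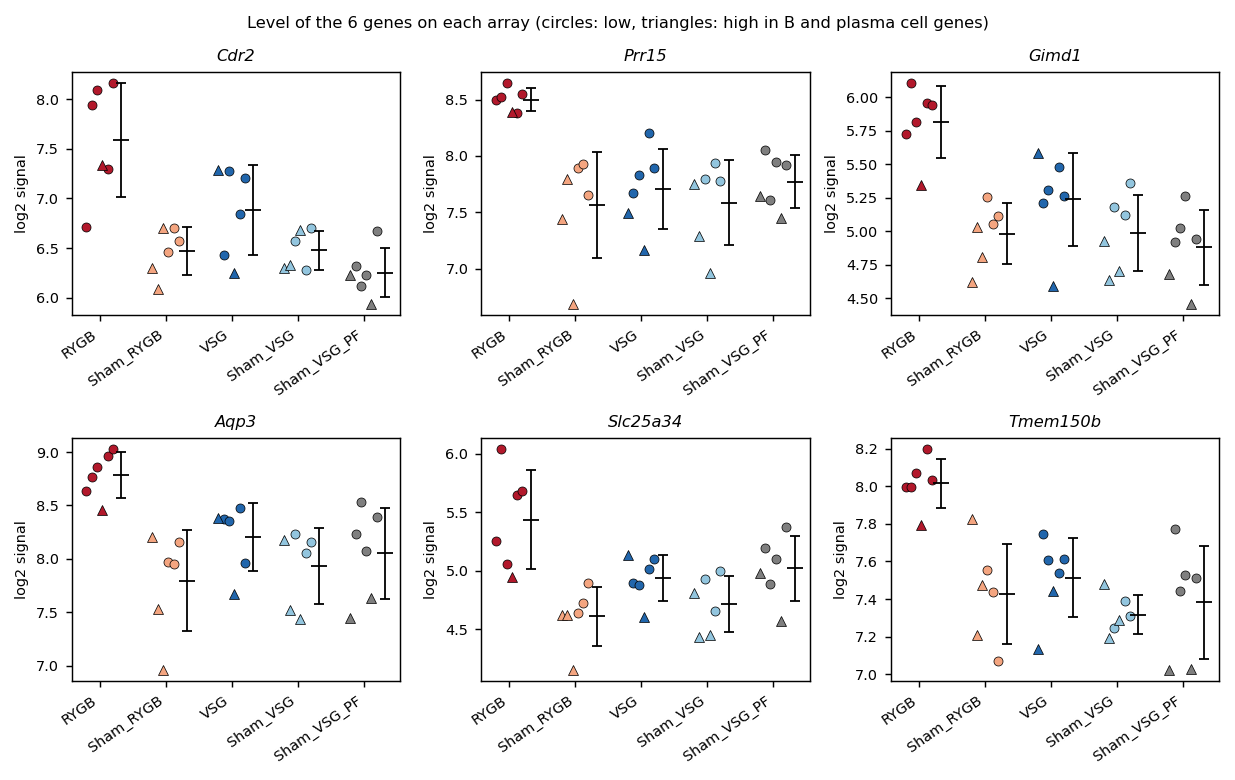
Log2 signal of Cdr2, Prr15, Gimd1, Aqp3, Slc25a34 and Tmem150b on each of the 30 arrays, in 5 groups of 6 rats, with the mean and SD of each group beside its points. Circles are arrays in the lower range of lymphoid content and triangles those in the upper range, and the 6 RYGB arrays of Prr15, from 8.38 to 8.65, lie above all other arrays.

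All 6 members had a higher mean in RYGB than in Sham_RYGB, as they were chosen to, against 48.0% of all genes. RYGB had the highest of the 5 group means for all 6, as it did for 25.2% of all genes tested. RYGB and Sham_RYGB did not overlap, with RYGB higher, for 5 of the 6 members, a pattern shown by 0.458% of all genes. In the fit across all genes, 0.183% of genes (20) passed a Benjamini-Hochberg adjusted p of 0.05 in this contrast and 0.156% (17) were higher, and all 6 members are among them because they were picked there. The member nearest the threshold was Tmem150b, with a log2 difference of 0.59. Among genes higher in RYGB, the nearest outside the threshold was Rab24, a small GTPase, with a log2 difference of 0.50.

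After VSG, none of the 6 genes passed the test against either sham group. Against Sham_VSG all 6 had a higher mean, where 43.5% of all genes did, and their median log2 difference was 0.24 against -0.03 over all genes. The log2 differences were 0.40 for Cdr2 (95% confidence interval -0.02 to 0.83), 0.27 for Aqp3 (-0.15 to 0.69), 0.25 for Gimd1 (-0.08 to 0.58), 0.23 for Slc25a34 (-0.11 to 0.56), 0.20 for Tmem150b (-0.06 to 0.45) and 0.12 for Prr15 (-0.26 to 0.50). The limma fit over all genes gave adjusted p values from 0.819 for Cdr2 to 0.9 for Prr15, and it called 0% of genes, although 661 of 10918 had an unadjusted p below 0.05. Between 4 and 5 of the 6 VSG arrays were above the Sham_VSG mean for each member. Most immune cell genes had lower means in VSG: 16 of 17 B and plasma cell genes (median log2 difference -0.77) and 19 of 20 T and NK cell genes (-0.49), and none passed. Genes of such a list vary together across arrays, and 2 VSG and 3 Sham_VSG arrays were high in lymphoid genes. The B and plasma cell mean did not differ by the exact permutation test (p = 0.331, adjusted over 12 tests 0.536). The B and plasma cell mean ran from 4.66 to 7.79 in VSG and from 5.02 to 7.82 in Sham_VSG. With that mean as a covariate the differences were 0.35 for Cdr2, 0.15 for Tmem150b, 0.14 for Gimd1, 0.13 for Aqp3, 0.13 for Slc25a34 and -0.0091 for Prr15.

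Against the pair-fed sham, 4 of the 6 members had a higher mean in VSG and 2 a lower one, where 45.3% of all genes were higher. Cdr2 showed the largest log2 difference, 0.63 (interval 0.21 to 1.05), with 5 of 6 VSG arrays above the pair-fed mean and an unadjusted p of 0.0049, but its limma adjusted p was 0.596. Gimd1 followed at 0.36 (interval 0.03 to 0.69, limma adjusted p = 0.78). Aqp3 and Tmem150b differed by 0.15 and 0.13, and Prr15 and Slc25a34 by -0.06 and -0.08. This contrast also called 0% of genes, with 649 below an unadjusted p of 0.05. With the mean of the smooth muscle genes as a covariate, 82 genes passed and Gimd1 was among them (limma adjusted p = 0.0435). VSG is part of both contrasts, so they are not independent.

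Paired feeding itself, Sham_VSG_PF against Sham_VSG, moved no member past the test, and 4 of the 6 had a higher mean in the pair-fed rats, where 46.8% of all genes did. Slc25a34 had the largest difference, 0.31 (interval -0.03 to 0.64, limma adjusted p = 0.927), with 5 of 6 pair-fed arrays above the Sham_VSG mean. Cdr2 was lower by -0.22 and Gimd1 by -0.11, and Prr15, Aqp3 and Tmem150b were higher by 0.19, 0.12 and 0.07. The fit called 0% of genes in this contrast, with 582 below an unadjusted p of 0.05. Whether the effects of bypass and sleeve on these genes differ was not tested, since the members were picked for a large RYGB difference.

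**Figure D2:**
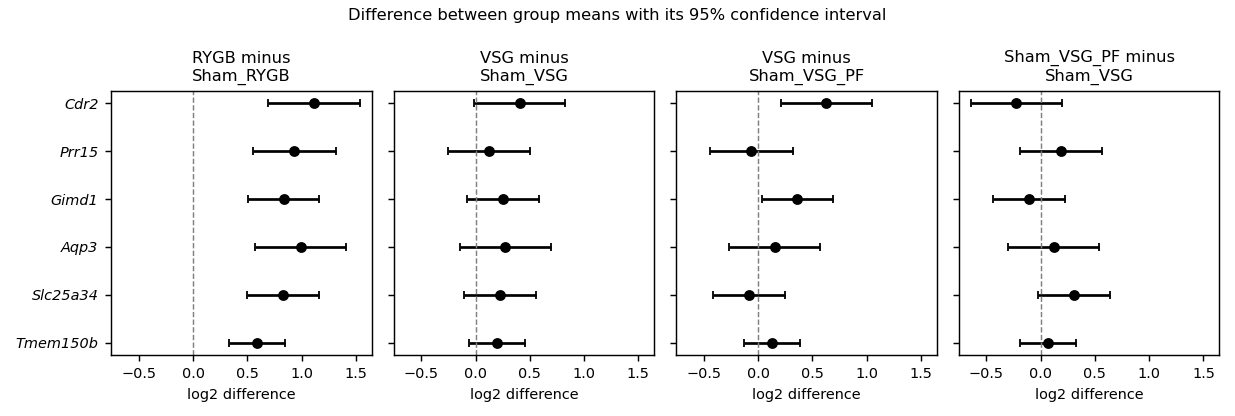
Log2 differences between group means for the 6 genes in 4 comparisons, with 95% confidence intervals from the fit to 30 arrays. The RYGB panel shows the differences by which the genes were chosen, and in the other panels the intervals include 0 except those of Cdr2 and Gimd1 in VSG minus Sham_VSG_PF.

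Lymphoid content was related to 5 of the 6 genes in the rats of the VSG side. On the 18 VSG, Sham_VSG and Sham_VSG_PF arrays, with a mean fitted for each group, Aqp3 fell by 0.22 per log2 unit of lymphoid content, Prr15 by 0.21, Gimd1 by 0.18, Slc25a34 by 0.13 and Tmem150b by 0.11. The 95% confidence intervals of these slopes were -0.32 to -0.13 for Aqp3, -0.29 to -0.13 for Prr15, -0.27 to -0.10 for Gimd1, -0.20 to -0.05 for Slc25a34 and -0.19 to -0.04 for Tmem150b. Their limma p values, adjusted over all genes, were 0.00126, 0.000421, 0.00167, 0.0156 and 0.0236. Cdr2 had a slope of -0.09 (interval -0.21 to 0.03, limma adjusted p = 0.275) and did not pass, and its slope was -0.029 without VSG replicate 4. A negative slope passed for 15.8% of all genes and a slope of either sign for 30.6%, so that a fall with lymphoid content was common in this tissue. The members were chosen between groups with 1 (RYGB) and 3 (Sham_RYGB) arrays high in lymphoid genes. Such a choice can favour genes that fall with lymphoid content, so the share over all genes is not a matched background. Without Sham_VSG_PF replicate 5, Slc25a34 and Tmem150b no longer passed (limma adjusted p = 0.0693 and 0.0859), which left 3 members. Slc25a34 was also lost without VSG replicate 4 (0.0601), and Tmem150b without Sham_VSG_PF replicate 1 (0.0684) or over all 30 arrays (0.0859).

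Within the lower range of lymphoid content alone no slope passed. On the 11 low arrays of the VSG side the limma fit called 0 of all genes, with 509 below an unadjusted p of 0.05. The slopes there were -0.53 for Prr15, -0.43 for Slc25a34, -0.40 for Cdr2, -0.36 for Gimd1, 0.073 for Aqp3 and 0.35 for Tmem150b, all with an adjusted p of 0.999. Plain correlations, with the 3 groups together and no group means removed, were also computed. Within the 11 low arrays they ran from r = -0.43 for Cdr2 to -0.20 for Aqp3, and Aqp3 and Tmem150b (r = -0.37) thus had negative correlations where their slopes with group means fitted were positive. Within the 7 high arrays they ran from -0.87 for Gimd1 to -0.02 for Tmem150b. The strongest, Gimd1 in the high arrays, had r = -0.87 (exact permutation p = 0.0187, adjusted over 12 relations 0.224) and rho = -0.57 (exact permutation p = 0.2), and r was -0.27 without the 2 arrays farthest from the median. None of the 12 relations passed after adjustment by r or by rho.

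The arrays at the low end of each group followed the same division. Over the 30 pairs of a member and a group, the lowest array was in the upper range of lymphoid content in 26 and the highest array in 7. The members were read on the same arrays, so these pairs are not independent, and they include the groups by which the members were chosen. The same share over all genes was not computed, and the count is a description only. VSG replicate 4 was the lowest VSG array for 5 of the 6 members, and RYGB replicate 4, the only RYGB array high in lymphoid genes, was the lowest RYGB array for 4. In Sham_RYGB, the 3 low-lymphoid arrays had Prr15 at 7.65 to 7.93 and the 3 high ones at 6.69 to 7.79, and Aqp3 at 7.95 to 8.16 against 6.96 to 8.21. Gimd1 was at 5.05 to 5.25 against 4.62 to 5.03, and Slc25a34 at 4.64 to 4.90 against 4.15 to 4.62. Cdr2 reached 6.70 in both ranges, and Tmem150b went the other way, at 7.07 to 7.55 against 7.21 to 7.83.

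**Figure D3:**
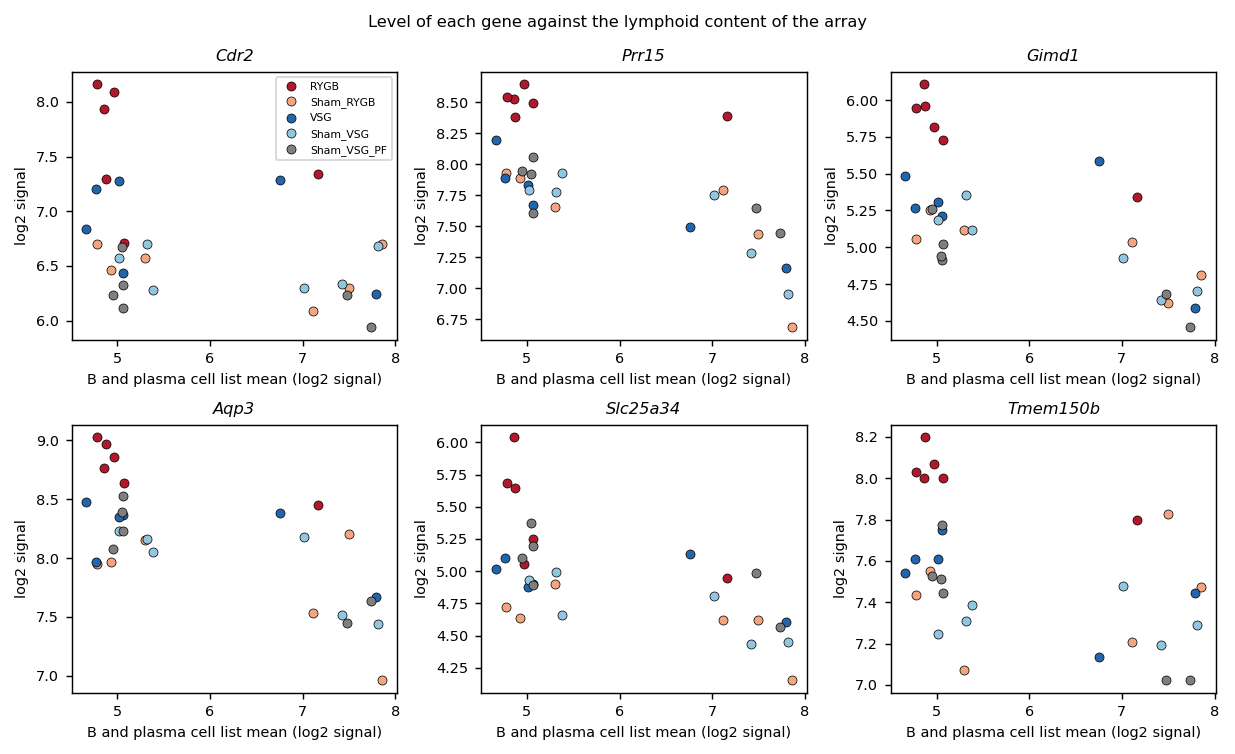
Log2 signal of each gene (y axis) against the mean log2 signal of 17 B and plasma cell genes (x axis) on the 30 arrays, coloured by group. Arrays fall into a lower range up to 5.38 and an upper range from 6.76, and the single RYGB array in the upper range, at 7.16, is below the other RYGB arrays for Gimd1, Aqp3, Slc25a34 and Tmem150b.

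The RYGB and Sham_RYGB pieces also differed in content, though none of the 3 list means tested passed after adjustment. Lymphoid content was 5.29 ± 0.92 (SD, n = 6) in RYGB and 6.25 ± 1.39 (SD, n = 6) in the sham (exact permutation p = 0.136, adjusted over 12 tests 0.358). Fat cell content was 5.52 ± 0.93 (SD, n = 6) against 4.36 ± 0.22 (SD, n = 6), with an exact permutation p of 0.00433 and an adjusted p of 0.052. The mean of 16 enterocyte genes (22 were listed) was 10.50 ± 0.15 (SD, n = 6) against 10.21 ± 0.25 (SD, n = 6), with an exact permutation p of 0.0476 and an adjusted p of 0.286. Other lists were counted gene by gene. All 19 proliferation genes tested had lower means in RYGB (median log2 difference -0.34) and none passed. All 9 tuft cell genes tested were also lower (median -0.54), and 1 of them passed, Alox5, a lipoxygenase named here after its values were seen, which fell by 0.78 (limma adjusted p = 0.0348). No gene passed, however, when only these groups were fitted. The T and NK cell mean ran from 4.47 to 6.08 in RYGB and from 4.65 to 6.09 in the sham. The part of these cell types in the members' differences was not tested beyond the covariates below.

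Between the 5 RYGB and the 3 Sham_RYGB arrays low in lymphoid genes, all 6 members, Tmem150b included, were without overlap, as were 2.67% of all genes with RYGB higher. The log2 differences there were 1.06 for Cdr2, 0.69 for Prr15, 0.77 for Gimd1, 0.83 for Aqp3, 0.78 for Slc25a34 and 0.71 for Tmem150b. With the arrays of high fat cell content left out, 3 RYGB arrays remained against 6 sham arrays, and 5 members did not overlap, against 1.41% of all genes, with log2 differences from 0.57 for Tmem150b to 1.05 for Cdr2. With lymphoid content as a covariate the differences were 1.03 for Cdr2, 0.74 for Prr15, 0.66 for Gimd1, 0.79 for Aqp3, 0.69 for Slc25a34 and 0.52 for Tmem150b. With the enterocyte mean as the covariate they were 0.94 for Cdr2, 0.60 for Prr15, 0.59 for Gimd1, 0.71 for Aqp3, 0.66 for Slc25a34 and 0.52 for Tmem150b. These values describe the contrast by which the genes were chosen and carry no test.

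**Figure D4:**
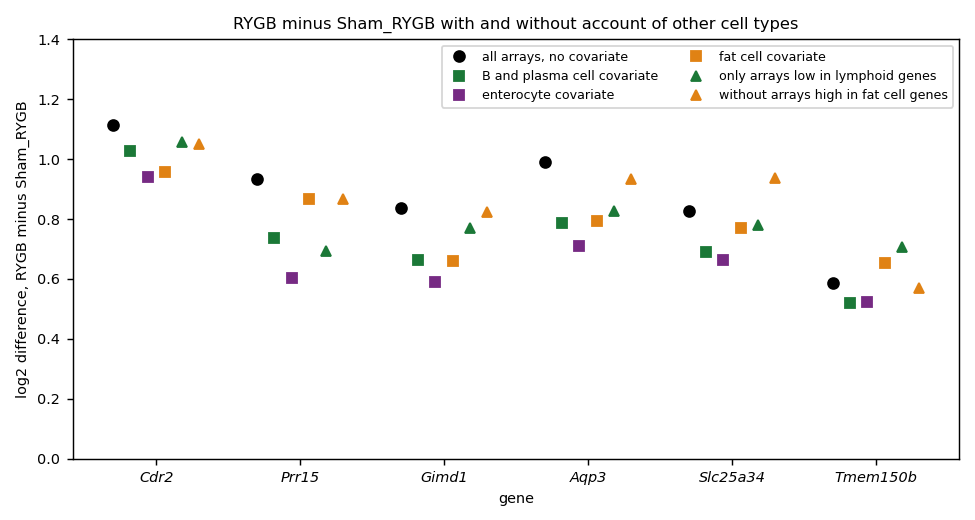
Log2 difference RYGB minus Sham_RYGB for each gene from all arrays, with 1 covariate for the content of another cell type, or with arrays high in lymphoid or fat cell genes left out. All points stay above 0, from 0.52 for Tmem150b with a lymphoid or an enterocyte covariate to 1.12 for Cdr2 over all arrays.

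Members rose with enterocyte content on the same 18 arrays, in a fit added after the data were seen. Positive slopes on the enterocyte mean passed for 5 of the 6 members, against 11.8% of all genes. The enterocyte mean was itself higher in RYGB than in Sham_RYGB, the contrast of the choice, so this share is not a matched background. The slopes were 1.16 for Aqp3, 1.15 for Prr15, 1.08 for Gimd1, 0.87 for Cdr2 and 0.85 for Slc25a34 (limma adjusted p from 0.00334 to 0.0326), and 0.37 for Tmem150b (limma adjusted p = 0.282). Over all 30 arrays 3 members passed, and within the low-lymphoid arrays 0 members and 0 genes did in the limma fit, with 566 genes below an unadjusted p of 0.05. The lymphoid and enterocyte means are measured on the same arrays, and their parts were not separated here.

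Once group means and lymphoid content were removed, the 6 genes had no relation with each other that passed. Of the 15 pairs over 30 arrays, the highest correlation was between Gimd1 and Slc25a34, with r = 0.48 (permutation p = 0.0105, adjusted 0.157) and rho = 0.35 (permutation p = 0.0591, adjusted 0.578), and r was 0.25 without the 2 farthest arrays. The lowest was between Gimd1 and Tmem150b, with r = -0.31 (permutation p = 0.0912, adjusted 0.351).

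The genes most like each member are given by Pearson's r over the 30 arrays after group means were removed, as a description. Nearest to Prr15 were Myo1a (r = 0.91), a brush border myosin, Akr1c14 (0.89), an aldo-keto reductase, and Vil1 (0.89), which encodes the microvillus protein villin. Nearest to Aqp3 were Mep1a (0.88), a brush border metalloprotease, Tmem98 (0.86) and Pln (0.86), a regulator of the calcium pump in muscle. Gimd1 was nearest to Tstd1 (0.87), Pcnx1 (0.86) and Bcar1 (0.85), an adaptor protein of cell adhesion. Slc25a34 was nearest to Clptm1 (0.83), Cyp17a1 (0.79), a steroid-synthesis enzyme, and Trim40 (0.77). Lower values were reached by Tmem150b, with Tns4 (0.71), Armcx3 (0.69) and Purb (0.68), and by Cdr2, with Sync (0.65), Abhd6 (0.64) and Tet3 (0.64). Within the 19 low-lymphoid arrays r fell to 0.46 for Prr15 with Myo1a and to 0.15 for Prr15 with Vil1, but was 0.78 for Cdr2 with Tet3.

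With lymphoid content removed as well, Myo1a stayed nearest to Prr15 (r = 0.78), ahead of Akr1c14 (0.74) and C1h11orf86 (0.73), and Mep1a stayed nearest to Aqp3 (0.73), ahead of Acad11 (0.71), an acyl-CoA dehydrogenase, and Tmem98 (0.70). Clptm1 stayed nearest to Slc25a34 (0.70), followed by Fcmr (0.69), a receptor for IgM, and Bmp7 (0.68). For the remaining members the nearest genes were others: Clec3b (0.69), Krtap17-1 (0.68) and Mtfp1 (0.67) for Gimd1, Cd72 (0.70), a B cell surface protein, Prkx (0.69) and Kirrel1 (0.65) for Tmem150b, and Tdp1 (0.65), Mmd (0.64) and Mepce (0.63) for Cdr2. Within the 19 low-lymphoid arrays r for these pairs ran from -0.06 (Tmem150b with Kirrel1) to 0.71 (Cdr2 with Mmd), and was 0.09 for Aqp3 with Tmem98. The arrays in these correlations share a normalization and the tissue differences described above.

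The family of Gimd1 went the other way from Gimd1 in its relation to lymphoid content. Of 7 other GIMAP genes listed, 4 were tested, and all 4 had positive slopes that passed, at 0.69 for Gimap7, 0.57 for Gimap4, 0.33 for Gimap9 and 0.23 for Gimap8 (limma adjusted p from 2.19e-07 to 0.00447), against -0.18 for Gimd1. A positive slope passed for 14.8% of all genes. Between RYGB and Sham_RYGB all 4 had lower means and none passed. Gimap7 was at 6.65 ± 1.09 (SD, n = 6) against 7.46 ± 1.10 (SD, n = 6) and Gimap4 at 5.12 ± 0.93 (SD, n = 6) against 5.76 ± 0.79 (SD, n = 6).

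Among 5 other aquaporins tested of 11 listed, 4 had higher means after RYGB and none passed, with a median log2 difference of 0.44 against -0.01 over all genes. Aqp11, an aquaporin of intracellular membranes, differed by 0.54 (limma adjusted p = 0.15), Aqp1, the water channel of vessel walls, by 0.73 (0.226), and Aqp7, another glycerol channel, by 0.44 (0.296). Of 6 other genes of glycerol handling tested (15 listed), 5 had higher means and none passed. Pnpla2, the lipase that starts triglyceride breakdown, differed by 0.34 (limma adjusted p = 0.191), and Lpin2, a phosphatidate phosphatase, by 0.46 (0.205). Fat cell content, which is also high in 3 RYGB arrays, moves with this contrast, and its part in these values was not tested. Lymphoid slopes had the same sign as that of Aqp3 for all 5 other aquaporins, and 2 of them passed. They were negative for 5 of the 6 glycerol genes, and those 5 passed, where a negative slope passed for 15.8% of all genes. Aqp7 is in both lists.

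The mitochondrial carriers showed no common shift after RYGB. Of 31 tested besides Slc25a34 (39 listed), 18 had higher and 13 lower means, none passed, and the median log2 difference was 0.03. By their symbols 2 of the 31 are pseudogenes, and without them 17 had higher and 12 lower means. The carrier with the smallest p was Slc25a20, which carries acylcarnitines, with 0.48 (limma adjusted p = 0.221), followed by Slc25a43 with -1.13 (0.272). Slc25a43 also rose with lymphoid content, by 0.44 per log2 unit (limma adjusted p = 7.45e-05), opposite in sign to Slc25a34. Of the 31 carriers, however, 19 had negative lymphoid slopes, as Slc25a34 had, and 12 positive ones. Among these slopes 5 negative and 4 positive ones passed, where 15.8% of all genes passed with a negative and 14.8% with a positive slope.

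The nearest relatives of Tmem150b did not pass after RYGB. Of 3 tested, Tmem150a differed by 0.01, Dram2 by 0.16 and Tmem150c by -0.20. Among 28 autophagy genes tested (39 listed), 17 had higher and 11 lower means, and Vmp1, a membrane protein needed to form autophagosomes, was the one that passed. It rose by 0.42 on the log2 scale, from 8.14 ± 0.17 (SD, n = 6) to 8.55 ± 0.14 (SD, n = 6), with a limma adjusted p of 0.023, although no gene passed when only these groups were fitted. Its differences after VSG were 0.10 against Sham_VSG and 0.24 against Sham_VSG_PF, and neither passed. Lymphoid slopes were negative for 1 and positive for 2 of the 3 relatives, and none passed. Of the 28 autophagy genes 18 had negative lymphoid slopes and 10 positive ones, and 8 negative and 3 positive ones passed. Over all genes, 15.8% passed with a negative and 14.8% with a positive slope.

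Of 9 tested partners and relatives of Cdr2 (15 listed: its paralog, MYC-network genes and HIF prolyl hydroxylases), 8 had higher means after RYGB and none passed. Egln3, a HIF prolyl hydroxylase, differed by 0.26 (limma adjusted p = 0.348) and Mxi1, a MYC antagonist, by 0.31 (0.396). The paralog Cdr2l was near the array medians of 3.10 to 3.25, at 3.22 ± 0.55 (SD, n = 6) and 3.06 ± 0.50 (SD, n = 6). Of 14 genes of cell cycle exit and enterocyte maturation listed beside Prr15 and tested (19 listed), 11 had higher means and none passed. Creb3l3, a transcription factor of lipid metabolism in liver and gut, differed by 1.17 (limma adjusted p = 0.0706) and Tob1, an inhibitor of cell proliferation, by 0.27 (0.247). No gene of these families passed in any of the 3 contrasts of the VSG side. In the list of Prr15, 13 of the 14 genes had negative lymphoid slopes, and 8 negative and 1 positive slope passed. In that of Cdr2, 6 of the 9 had negative slopes, and 4 negative and 1 positive slope passed. The shares over all genes were 15.8% for a negative and 14.8% for a positive slope that passed.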

How the data were processed

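Ileal RNA from 30 rats was amplified, biotin-labelled and read on Affymetrix arrays of 1 colour, per the labels' protocols. The authors deposited log2 signals from RMA, made with Affymetrix Expression Console (version 1.3.0.187), per the submitters' processing notes. Which arrays were normalized together and the genome build are not given in the sources used here. Of 36685 transcript clusters, 14824 carried 1 symbol, 829 several, and 21032 were not named. The brightest cluster per symbol was kept, and genes below the 25th percentile of mean level (log2 2.33) were left out, which left 10918. Groups come from the labels.

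With limma 3.58.1 in R 4.3.3, 1 model with group means covered the 30 arrays, and two-sided p values were adjusted by Benjamini and Hochberg over all genes (threshold 0.05). The number of rats limits the precision, and the median 95% interval of a log2 difference reached 0.31 to either side. Slopes on lymphoid or enterocyte content used the 18 arrays of the VSG side, with the list's own genes left out. Correlations and list means were tested by permutation (scipy 1.17.1), with all splits enumerated where the text says exact and 100000 resamples otherwise. Fits were tested on simulated data. The named genes are the 6 members, for each of 8 family lists the genes that passed or, failing that, those with the 2 smallest p values after RYGB, the 3 genes nearest each member, and defining markers. Tnfrsf1a, Rab24 and some family members were added after their values were seen. The members and lists were chosen with earlier results of these data known. The replicate numbers were not taken to pair the rats, since in no comparison did all 6 same-numbered pairs deviate together (the check is given with the alternatives). That check cannot exclude pairing, as 5 of 6 pairs did so for VSG against Sham_VSG. Results with the replicate number as a block are given there as well. Alternatives covered normalization, filters, weights, covariates, left-out arrays and a replicate block. The series also names duodenum, which was not analysed here.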

Additional observations from a re-analysis of the deposited data

Results flagged for a closer look

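Of 45 sets of 6 values checked, 4 held 1 array whose gap to its nearest neighbour exceeded 0.625 of the whole range of the set, and chance alone gives about 1 in 20. Gimd1 in VSG replicate 4 was at 4.59, with the next array at 5.21, and that array is high in lymphoid genes. The B and plasma cell mean of RYGB replicate 4 was 7.16, with the next RYGB array at 5.07, and this array was the lowest RYGB array for 4 of the 6 members. The enterocyte mean of Sham_VSG_PF replicate 5 was 9.79, with the next array at 10.23. The fat cell mean of VSG replicate 1 was 6.67, with the next VSG array at 4.64.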

How the results depend on the processing

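Every member kept a positive RYGB difference under all 15 alternatives, but the count of members and genes past the threshold depended on the setting. It was 0 members and 0 genes with only the groups compared (1225 genes below an unadjusted p of 0.05), 0 and 0 with the fat cell mean as a covariate (779), 0 and 3 with the enterocyte mean, 6 and 102 with the smooth muscle mean, 4 and 8 in low-lymphoid arrays, and 0 and 1 with the arrays of high fat cell content left out. Leaving out 1 rat at a time gave 2 (without RYGB replicate 6) to 41 genes (without RYGB replicate 4) and 0 to 6 members: 0 without RYGB replicate 6, 1 without RYGB replicate 2 or Sham_RYGB replicate 3, 3 without RYGB replicate 3, and 2 when Sham_RYGB replicate 2 was dropped. The cause was not tested. These counts, and those of the replicate block after RYGB given next, describe the contrast on which the members were chosen and do not test the members. With the replicate number as a block, 18 genes and 4 members passed after RYGB, Aqp3 and Tmem150b being lost, and 4 members passed for the lymphoid slope (Tmem150b 0.0571). The correlation of deviations between same-numbered rats was over 0.1 in 2 of 6 pairs for RYGB (-0.57 to 0.24), 5 of 6 for VSG against Sham_VSG (-0.18 to 0.68), 4 of 6 against Sham_VSG_PF and 3 of 6 between the shams.

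On the VSG side, VSG against Sham_VSG called 0 genes under every alternative, including those that left out 1 rat (0 to 0 genes and members). Against Sham_VSG_PF 82 genes and 1 member passed with the smooth muscle mean. Sham_VSG_PF against Sham_VSG gave 4 genes with the enterocyte mean, 1 with the smooth muscle mean, 1 in low-lymphoid arrays, and 0 to 1 with 1 rat left out, with 0 members. Differences that reversed were small: VSG minus Sham_VSG for Prr15 was -0.0091 with the lymphoid covariate, and -9e-04 (without Sham_VSG replicate 4) to 0.23 with 1 rat left out. VSG minus Sham_VSG_PF for Aqp3 was -0.013 with the enterocyte mean and -0.015 in low-lymphoid arrays, for Prr15 0.14 with the smooth muscle mean, 0.018 in low-lymphoid arrays and -0.16 to 0.047 (without VSG replicate 4) with 1 rat left out, and for Slc25a34 0.074 with the smooth muscle mean. Sham_VSG_PF minus Sham_VSG was 0.063 for Gimd1 with the enterocyte mean, -0.030, -0.13 and -0.082 for Prr15, Aqp3 and Tmem150b with the smooth muscle mean, and -0.012 (without Sham_VSG_PF replicate 2) to 0.14 for Tmem150b with 1 rat left out. The lymphoid slope in low-lymphoid arrays called 0 genes and 0 members, with 0.073 for Aqp3 and 0.35 for Tmem150b, and 3 to 5 members (2581 to 3408 genes) passed with 1 rat left out. The enterocyte slope gave 3 members over all 30 arrays and 0 members and 0 genes in low-lymphoid arrays, where Tmem150b was at -0.20.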
